A study of Mus musculus with 9 samples.

Results

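The 10 genes described here encode the core of the cytosolic heat shock chaperone system. They are the HSP110 proteins Hspa4l, Hspa4 and Hsph1, the HSP70 proteins Hspa8, Hspa1a and Hspa1b, the HSP90 proteins Hsp90aa1 and Hsp90ab1, the J protein Dnajb1 and the transcription factor Hsf1. The set was formed around Hspa4l because its level was low in EAE and low in EAE with treatment, so the values of Hspa4l are a description with no test. The other 9 were chosen by name as the partners of Hspa4l in the same chaperone system. All 10 were among the 16749 genes that passed the filter on low counts, of 27179 gene identifiers counted.

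The tissue was the spinal cord, taken from C57BL/6 mice of 3 groups with 3 animals each. EAE+EHP-101 mice had experimental autoimmune encephalomyelitis, a mouse model of multiple sclerosis in which immune cells attack the myelin of the central nervous system, and were given EHP-101 orally at 20 mg/kg. EAE mice had the disease without EHP-101, and Control mice had neither. Each mouse gave 1 poly-A RNA library of whole tissue, with 30448507 to 32661741 counted reads. Values are normalised CPM (reads of a gene as a share of all counted reads, scaled between libraries), and differences are log2 fold changes with their standard error (SE) from edgeR's quasi-likelihood test, called at a Benjamini-Hochberg adjusted p under 0.05 over all 16749 genes.

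HSP70 proteins bind exposed hydrophobic stretches of unfolded proteins and let them go in a cycle driven by ATP. J proteins such as Dnajb1 deliver the client and trigger ATP hydrolysis, and HSP110 proteins act as nucleotide exchange factors that release ADP, which allows the client to leave. With a J protein and an HSP70, HSP110 proteins also pull apart protein aggregates. HSP90 proteins receive partly folded kinases and steroid receptors from HSP70. In unstressed cells HSP70 and HSP90 hold Hsf1 inactive, and on heat or proteotoxic stress Hsf1 binds repeated heat shock elements and drives Hspa1a, Hspa1b, Hsph1, Dnajb1 and Hsp90aa1, whereas Hspa8, Hsp90ab1 and Hspa4 are abundant without stress. Neurons contain much Hspa8 and Hsp90 and are known for a weak induction of Hspa1a and Hspa1b.

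The libraries differed in ways that touch the chaperone values. Across genes, the deviation of a library from the mean rose with exon length in the 3 Control libraries (Spearman rho 0.24 to 0.41 across genes, which are not independent replicates) and fell with it in the EAE libraries (-0.33 to -0.26) and the EAE+EHP-101 libraries (-0.34 to -0.03). An analysis with this length trend removed from each library was therefore run as well. The summed level of 10 neuronal markers was 5317 to 5629 CPM in EAE+EHP-101, 5002 to 5544 CPM in EAE and 5868 to 6177 CPM in Control, and the summed level of 6 markers of monocytes and macrophages was 33.8 to 216 CPM in EAE+EHP-101, 734 to 873 CPM in EAE and 10.9 to 17.3 CPM in Control. Control replicate 1 had 40.4 CPM of 5 skeletal muscle markers, against 2.13 to 3.08 CPM in every other library. It also had 466 CPM of 6 motor neuron markers, against 282 and 247 CPM in Control replicates 2 and 3. Control replicate 3 had 39677 CPM of 8 oligodendrocyte markers, against 29228 and 29779 CPM in Control replicates 1 and 2. In whole tissue, fewer cells of a type and less RNA per cell cannot be told apart.

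Levels per kilobase of counted exon set the order of the 10 transcripts. In Control cords Hsp90ab1 stood first at 660 ± 28.1 CPM per kb (SD, n = 3), ahead of Hspa8 at 257, Hsp90aa1 at 186 and Hsph1 at 118. Hspa4l at 82.7 and Hspa4 at 76.2 CPM per kb followed, and their Control libraries did not overlap, with 80.4 to 83.9 for Hspa4l and 72.7 to 78.3 for Hspa4. Dnajb1 at 23.3 and Hsf1 at 17.7 CPM per kb overlapped in range. The inducible HSP70 genes were last, with 1.31 CPM per kb for Hspa1a and 0.966 for Hspa1b, also overlapping. In EAE+EHP-101 and in EAE the order was the same except for a single exchange: Hspa4 stood above Hspa4l, with 66.5 against 50.7 CPM per kb in EAE+EHP-101 and 67.8 against 51.2 in EAE. The exchange is in part set by the choice of Hspa4l for being low in both groups with EAE. The longest annotated Hspa4l transcript has 9479 bases (GENCODE M21), whereas 3558 bases of Hspa4l exon were counted. Its level relative to another gene thus depends on the exon model.

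**Figure D1:**
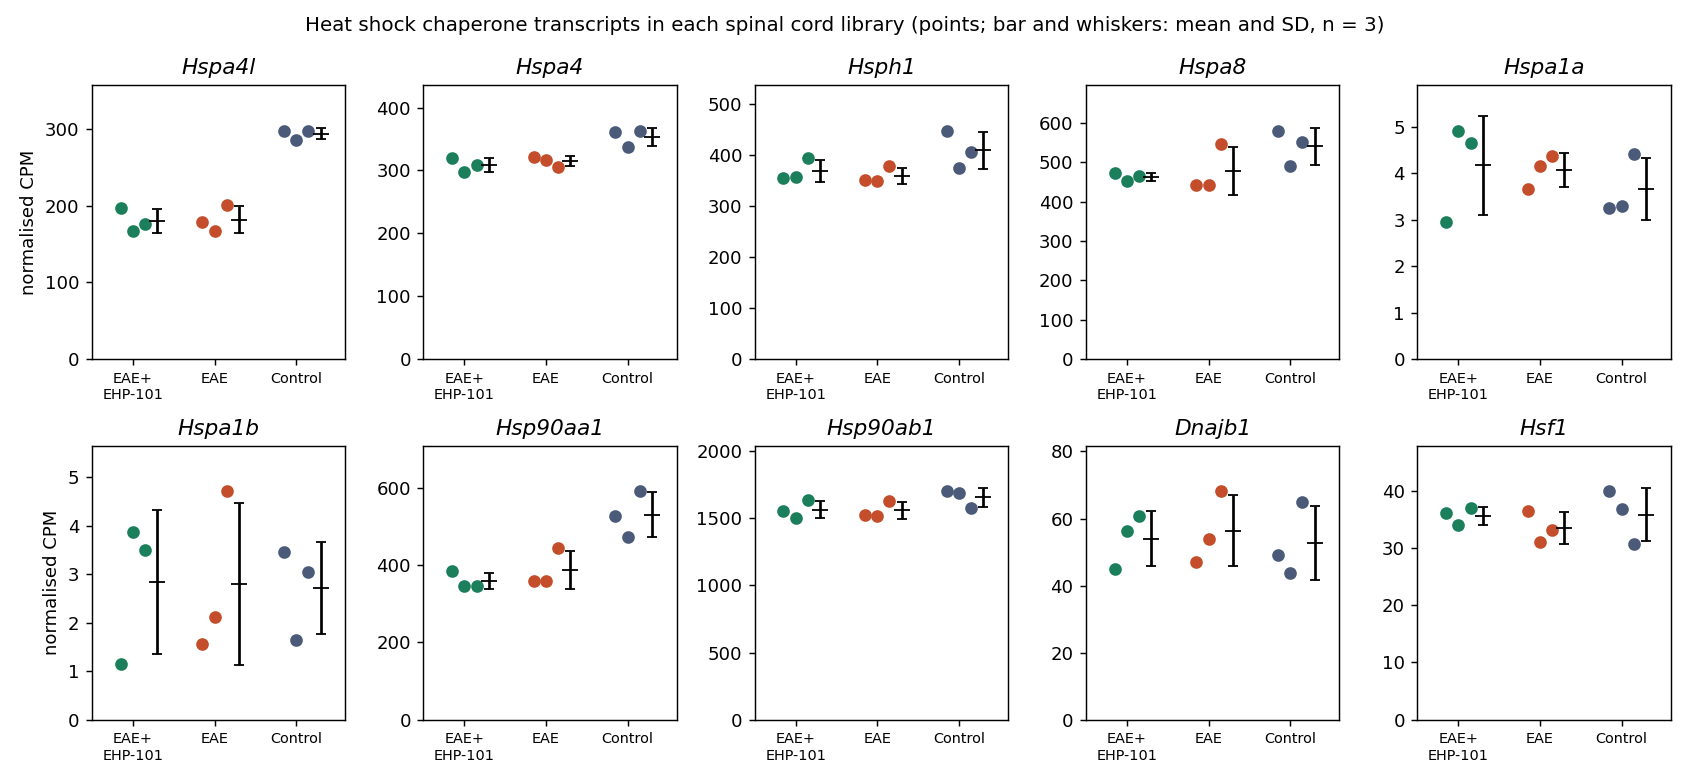
Normalised CPM (vertical axes, starting at 0) of each of the 10 genes in the 9 libraries, as 1 point per mouse with the mean and SD of each group (n = 3) beside the points. The EAE+EHP-101 and EAE points of Hspa4l, Hspa4 and Hsp90aa1 all lie below the Control points, and in the other 7 panels at least 1 of these groups overlaps Control.

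Hspa4l, an HSP110 exchange factor known for high expression in testis and for a role in the response to osmotic stress, lies at chr3:40745613-40790365 on the plus strand (mm10, 19 exon blocks, 3558 counted bases). It had 198, 168 and 176 CPM in the EAE+EHP-101 libraries, 179, 167 and 201 CPM in the EAE libraries, and 298, 286 and 298 CPM in the Control libraries. All 6 libraries of mice with EAE were below all 3 Control libraries, while the EAE+EHP-101 and EAE libraries overlapped. These values rest on 5189 to 9109 reads per library. The level was 180 ± 15.4 CPM in EAE+EHP-101, 182 ± 17.0 CPM in EAE and 294 ± 7.14 CPM in Control (SD, n = 3 each). The log2 fold change was -0.69 (SE 0.08) for EAE against Control, which is 38.0% lower, -0.70 (SE 0.08) for EAE+EHP-101 against Control, and -0.01 (SE 0.08) for EAE+EHP-101 against EAE. The comparisons share libraries, since the EAE mice enter the first and the third of these and the Control mice the first and the second. With the length trend removed, the same 3 values were -0.64, -0.67 and -0.03.

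The other HSP110 genes were less low in EAE. Hspa4 (chr11:53259814-53300479, minus strand), the close paralog of Hspa4l that is made in most tissues, had 320, 297 and 309 CPM in EAE+EHP-101, 321, 317 and 305 CPM in EAE, and 361, 337 and 363 CPM in Control. Its EAE+EHP-101 and EAE libraries all lay below the Control libraries. Hspa4 fell by 0.17 on the log2 scale in EAE against Control (SE 0.06, edgeR adjusted p = 0.0352), which is 11.1% lower, and by 0.20 in EAE+EHP-101 against Control (SE 0.06, edgeR adjusted p = 0.0336). The length trend removed, the values were -0.06 (edgeR adjusted p = 0.496) and -0.11 (edgeR adjusted p = 0.241), and neither call was kept. Fitting only the 2 groups compared also ended both (edgeR adjusted p = 0.0598 and 0.0650). Leaving out Control replicate 1 also ended both calls (edgeR adjusted p = 0.0528 and 0.0679), leaving out EAE replicate 1 or 3 ended the first (0.0564 and 0.0699), and leaving out EAE+EHP-101 replicate 2 or 3 ended the second (0.132 and 0.0905).

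Within each library the ratio of Hspa4l to Hspa4 (per kb of exon) was 0.805, 0.737 and 0.743 in EAE+EHP-101, 0.725, 0.689 and 0.858 in EAE, and 1.08, 1.11 and 1.07 in Control. The ratio was thus above 1 in the 3 Control libraries and below 1 in the other 6. Hspa4l was chosen for being low in both groups with EAE, so this split is in part set by that choice. Where the ratio stands relative to 1 depends on the exon model. Hsph1 (chr5:149616845-149636315, minus strand), the heat-inducible HSP110, had 354, 357 and 394 CPM in EAE+EHP-101, 350, 350 and 377 CPM in EAE, and 447, 375 and 406 CPM in Control. Its groups overlapped, and no change passed the test: the log2 fold change was -0.19 for EAE against Control (SE 0.07, edgeR adjusted p = 0.0676) and 0.04 for EAE+EHP-101 against EAE (edgeR adjusted p = 0.856). It was called in the first comparison without Control replicate 2 (edgeR adjusted p = 0.0188), Control replicate 3 (0.0474) or EAE replicate 3 (0.0470), and by DESeq2 (adjusted p = 0.0332).

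Hsp90aa1, the stress-inducible HSP90 of the cytosol (chr12:110691036-110696395, minus strand), was the member with the largest tested difference. It had 384, 347 and 346 CPM in EAE+EHP-101, 358, 358 and 445 CPM in EAE, and 528, 473 and 591 CPM in Control. All Control libraries were above all libraries with EAE, and EAE replicate 3 was the highest of those. Hsp90aa1 fell by 0.45 in EAE against Control (log2, SE 0.10, edgeR adjusted p = 0.00494), which is 27.0% lower, and by 0.56 in EAE+EHP-101 against Control (SE 0.10, edgeR adjusted p = 0.00673), which is 32.4% lower. EAE+EHP-101 against EAE gave -0.11 with a 95% interval of -0.33 to 0.11 (edgeR adjusted p = 0.660), an interval that holds neither a return to the Control level nor a further drop of the same size. Of the 50-base stretches of its longest transcript, 58.5% also occur in transcripts of other genes, and how reads with several matches were counted is not given in the sources used here, so its level is uncertain.

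Hsp90ab1, the constitutive HSP90 (chr17:45567778-45573261, minus strand), is the most abundant of the 10 and has 4.49% of its 50-base stretches in common with other genes. It had 1554, 1503 and 1632 CPM in EAE+EHP-101, 1525, 1514 and 1629 CPM in EAE, and 1698, 1690 and 1572 CPM in Control. The groups overlapped, with a log2 fold change of -0.09 for EAE against Control (edgeR adjusted p = 0.298) and 0.01 for EAE+EHP-101 against EAE (edgeR adjusted p = 0.975). The ratio of Hsp90aa1 to Hsp90ab1 per kb was 0.217, 0.203 and 0.186 in EAE+EHP-101, 0.207, 0.208 and 0.240 in EAE, and 0.273, 0.246 and 0.331 in Control. Every library with EAE was below every Control library in this ratio, the nearest being EAE replicate 3 and Control replicate 2.

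Hspa8, the constitutive HSP70 that also strips clathrin from endocytic vesicles (chr9:40801273-40805199, plus strand), had 472, 452 and 464 CPM in EAE+EHP-101, 441, 442 and 547 CPM in EAE, and 580, 489 and 552 CPM in Control. EAE replicate 3 lay among the Control libraries, whereas the 3 EAE+EHP-101 libraries were all below Control. Neither difference passed the test, with -0.18 for EAE against Control (SE 0.09, edgeR adjusted p = 0.139) and -0.22 for EAE+EHP-101 against Control (SE 0.09, edgeR adjusted p = 0.103). Without EAE replicate 3 the adjusted p was 0.0110 for the first and 0.0382 for the second, and without Control replicate 2 it was 0.0455 for the first. Its level is uncertain too, since 52.7% of its 50-base stretches recur in other transcripts.

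Hspa1a and Hspa1b, the inducible HSP70 genes that are the usual readout of a heat shock response, were near the bottom of the measured range. Both are single-exon genes on the minus strand of chr17 (34969359 to 34972156 for Hspa1a, 34956429 to 34959238 for Hspa1b). Hspa1a had 2.94, 4.92 and 4.64 CPM in EAE+EHP-101, 3.65, 4.16 and 4.37 CPM in EAE, and 3.25, 3.29 and 4.42 CPM in Control. Hspa1b had 1.15, 3.88 and 3.49 CPM in EAE+EHP-101, 1.57, 2.11 and 4.71 CPM in EAE, and 3.45, 1.65 and 3.05 CPM in Control. The groups of both genes overlapped in all comparisons, and the log2 fold change for EAE against Control was 0.15 for Hspa1a (SE 0.20, edgeR adjusted p = 0.585) and 0.05 for Hspa1b (SE 0.47, edgeR adjusted p = 0.949). Since 66.3% of the 50-base stretches of Hspa1a and 62.3% of those of Hspa1b recur in other transcripts, mainly each other's, their sum was also taken: it was 4.09, 8.80 and 8.13 CPM in EAE+EHP-101, 5.22, 6.28 and 9.08 CPM in EAE, and 6.70, 4.94 and 7.47 CPM in Control, which again overlapped. With 36 to 151 reads of Hspa1b per library, a rise of up to 1.08 on the log2 scale or a drop of up to 0.99 lay inside its 95% interval for EAE against Control.

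Dnajb1, the J protein that works with Hspa1a and Hspa8 (chr8:83608175-83611903, plus strand), had 44.9, 56.2 and 60.8 CPM in EAE+EHP-101, 47.1, 54.0 and 68.1 CPM in EAE, and 49.2, 43.8 and 65.0 CPM in Control. Its libraries spread more widely within each group than the groups differed, and the log2 fold change was 0.10 for EAE against Control (SE 0.17, edgeR adjusted p = 0.672) and -0.06 for EAE+EHP-101 against EAE (edgeR adjusted p = 0.891). Hsf1, the heat shock transcription factor (chr15:76477445-76500972, plus strand), had 36.0, 33.9 and 37.0 CPM in EAE+EHP-101, 36.4, 31.0 and 33.2 CPM in EAE, and 39.9, 36.8 and 30.8 CPM in Control. The Hsf1 groups overlapped as well, with -0.09 for EAE against Control (edgeR adjusted p = 0.465) and 0.09 for EAE+EHP-101 against EAE (edgeR adjusted p = 0.708). Without Control replicate 3, the lowest Hsf1 value of Control, the first became -0.22 and was called (edgeR adjusted p = 0.0389). The Hsf1 transcript does not report the activity of the factor, which is set by its trimerisation and phosphorylation.

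Counted over the 9 genes other than Hspa4l, EAE against Control gave 0 higher and 2 lower (Hspa4 and Hsp90aa1), where 20.2% of all tested genes were higher and 16.7% lower (37% either way). The count of lower genes was 1 to 4 with 1 library left out, and 4 without Control replicate 2 or 3. EAE+EHP-101 against Control gave the same 2 lower and 0 higher, where 9.96% of all genes were higher and 9.82% lower (19.8% either way), and 1 to 3 were lower with 1 library left out. The share of lower genes among the 9 is not set apart from that background. EAE+EHP-101 against EAE gave 0 called of 9 by edgeR, 0 at an unadjusted p under 0.05 and 0 by DESeq2, where 0.43% of all genes were higher and 4.81% lower (5.24% either way). In that comparison the log2 fold changes of the 9 ran between -0.11 and 0.09, with adjusted p of 0.660 to 0.988, and their median was 0.01. The median of the 9 was -0.09 for EAE against Control and -0.08 for EAE+EHP-101 against Control, beside 0.01 for all tested genes in each.

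**Figure D2:**
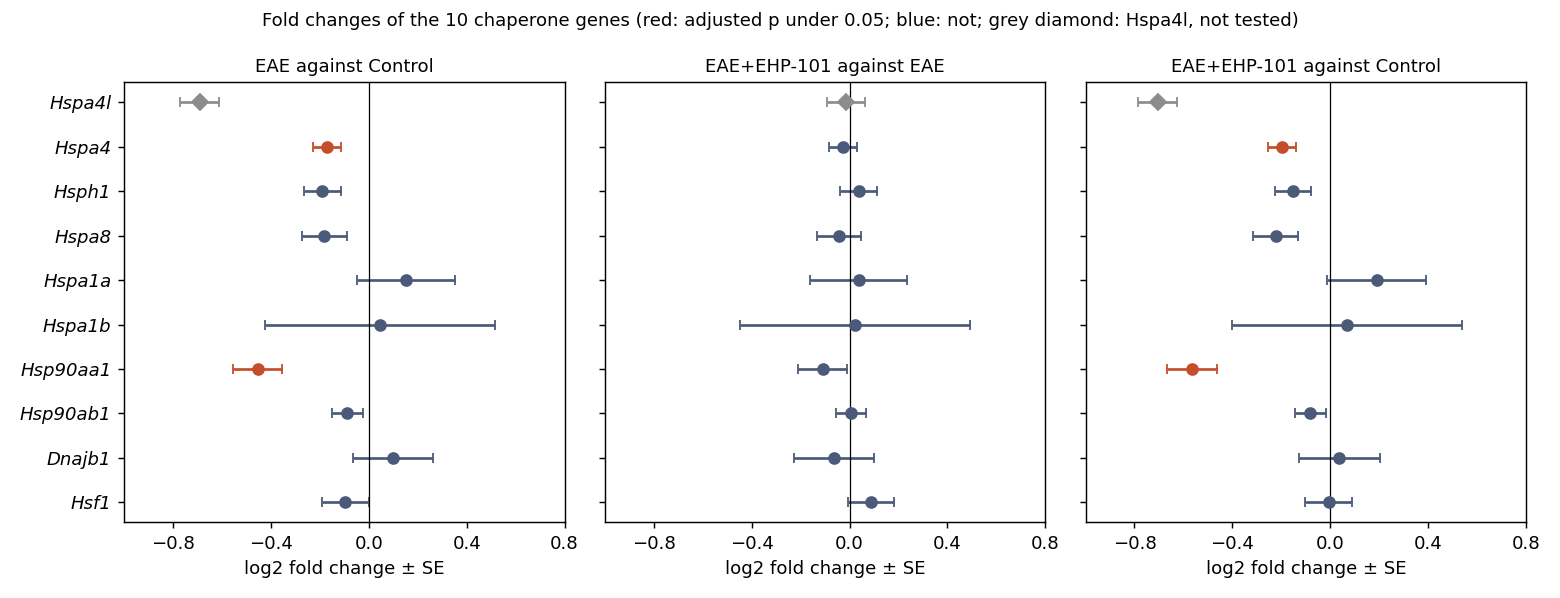
Log2 fold changes ± SE (horizontal axes) of the 10 genes (rows) in the 3 comparisons, with called genes in red, genes not called in blue and the untested Hspa4l as a grey diamond. Hspa4 and Hsp90aa1 are the 2 called genes in both comparisons with Control, and all 10 values lie between -0.11 and 0.09 in EAE+EHP-101 against EAE.

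In EAE and in Control, but not in EAE+EHP-101, a single library was the highest or the lowest of its group for most members. EAE replicate 3 was the highest of the 3 EAE libraries for 8 of the 10 genes (all but Hspa4 and Hsf1), where 34.2% of all tested genes were highest in that library. Control replicate 2 was the lowest Control library for 7 of the 10, where 32.7% of all genes were. EAE+EHP-101 replicates 1, 2 and 3 were the highest of their group for 4, 2 and 4 of the 10 and the lowest for 4, 5 and 1. The 10 transcripts together made up 3367, 3224 and 3426 CPM in EAE+EHP-101, 3263, 3239 and 3616 CPM in EAE, and 4008, 3736 and 3885 CPM in Control. The 3 Control sums were the highest, and that of EAE replicate 3 was the nearest to them. Hspa4l, chosen for being low in both groups with EAE, is part of these sums, so their order is in part set by that choice.

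The stretch before each start site was searched for the heat shock motif, to see which members hold the sequence that Hsf1 is known to bind. Its core was taken as GAANNTTC or TTCNNGAA, units that are each their own reverse complement, so that both strands are covered. RefSeq promoter windows of 300 bases (GRCm38.p6, 250 bases before the start to 50 after) were found for 6 of the 10 genes, namely Hspa4l, Hspa4, Hsph1, Hspa1a, Hspa1b and Dnajb1. A unit was present in the windows of Hsph1, Hspa1a and Hspa1b. The windows of Hspa4l (chr3:40745363-40745662, plus strand), Hsph1 (chr5:149636266-149636565, minus strand), Hspa1a (chr17:34972107-34972406, minus strand) and Hspa1b (chr17:34959189-34959488, minus strand) are shown to set the gene the description turns on beside the 3 with the motif, 5′ to 3′ on the strand of the gene, with the motif units in capitals.
Hspa4l: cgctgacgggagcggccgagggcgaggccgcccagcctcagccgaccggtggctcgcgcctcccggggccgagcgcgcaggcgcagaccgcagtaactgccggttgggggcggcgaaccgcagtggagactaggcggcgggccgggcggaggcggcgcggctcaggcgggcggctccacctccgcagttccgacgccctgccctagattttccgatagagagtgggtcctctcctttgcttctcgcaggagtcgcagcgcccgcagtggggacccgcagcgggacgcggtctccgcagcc
Hsph1: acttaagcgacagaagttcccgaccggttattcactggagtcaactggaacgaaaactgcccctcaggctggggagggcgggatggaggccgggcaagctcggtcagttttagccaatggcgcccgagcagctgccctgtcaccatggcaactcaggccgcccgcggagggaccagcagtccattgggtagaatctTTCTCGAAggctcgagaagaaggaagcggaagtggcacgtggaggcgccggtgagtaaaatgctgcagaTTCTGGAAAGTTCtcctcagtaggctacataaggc
Hspa1a: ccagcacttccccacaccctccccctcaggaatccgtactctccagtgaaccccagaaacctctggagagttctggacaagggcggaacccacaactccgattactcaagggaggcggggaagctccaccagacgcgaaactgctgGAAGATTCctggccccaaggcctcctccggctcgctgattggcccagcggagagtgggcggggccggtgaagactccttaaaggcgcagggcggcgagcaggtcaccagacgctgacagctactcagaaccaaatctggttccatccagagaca
Hspa1b: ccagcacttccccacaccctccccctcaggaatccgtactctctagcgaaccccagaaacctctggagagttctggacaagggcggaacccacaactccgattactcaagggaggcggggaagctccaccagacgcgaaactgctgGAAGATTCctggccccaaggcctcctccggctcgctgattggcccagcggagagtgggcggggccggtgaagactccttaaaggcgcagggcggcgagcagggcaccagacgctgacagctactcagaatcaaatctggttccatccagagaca
In Hsph1 the first unit begins 54 bases before the start site, and after the start site a TTCNNGAA unit and a GAANNTTC unit share their GAA and so form 3 alternating repeats. In Hspa1a and Hspa1b the unit begins 104 bases before the start. The 2 windows are identical at 296 of 300 bases, and the differences, with the Hspa1a base first and positions counted from 1 at the 5′ end of the window, are C44T, T47C, T249G and C276T. Neither unit is in the Hspa4l window, which has 74.7% G and C, and neither is in those of Hspa4 and Dnajb1, which says only that these letters are not in these windows. Of 32851 promoter windows, 7.86% hold GAANNTTC, 8.52% hold TTCNNGAA, 15.1% hold either and 0.603% hold 3 alternating repeats.

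The genes whose pattern over the 9 libraries was most like that of Hspa4l were Lnpep, Tdrkh, Dcp2, Ubfd1, Setd7, Dpp8, Zbtb18 and Oip5os1, each with a Pearson correlation of 0.99 in log2 CPM, among 13082 genes compared. As these 8 were picked for the likeness, their values are a description. Lnpep, a membrane aminopeptidase, had 49.2, 40.2 and 41.0 CPM in EAE+EHP-101, 43.6, 36.9 and 48.1 CPM in EAE, and 86.5, 91.6 and 90.4 CPM in Control, a log2 fold change of -1.06 for EAE against Control and 0.02 for EAE+EHP-101 against EAE. Dcp2, the mRNA decapping enzyme, had -0.47 and 0.01 in the same comparisons, and Dpp8, a cytosolic dipeptidyl peptidase, had -0.56 and 0.04. Their median counted exon length was 4968.5 bases, against 2765 bases for all 16749 tested genes. That is a wider set than the 13082 compared, whose own median length was not taken. Among the chaperones, the correlation with Hspa4l was 0.94 for Hsp90aa1, which ranked 519, and 0.90 for Hspa4, which ranked 1072. It was 0.79 for Hspa8, 0.73 for Hsph1, 0.69 for Hsp90ab1 and 0.20 for Hsf1, and 0.03 for Hspa1b, -0.12 for Dnajb1 and -0.40 for Hspa1a. These correlations rest on 9 libraries in 3 groups, of which Control stands apart for Hspa4l.

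**Figure D3:**
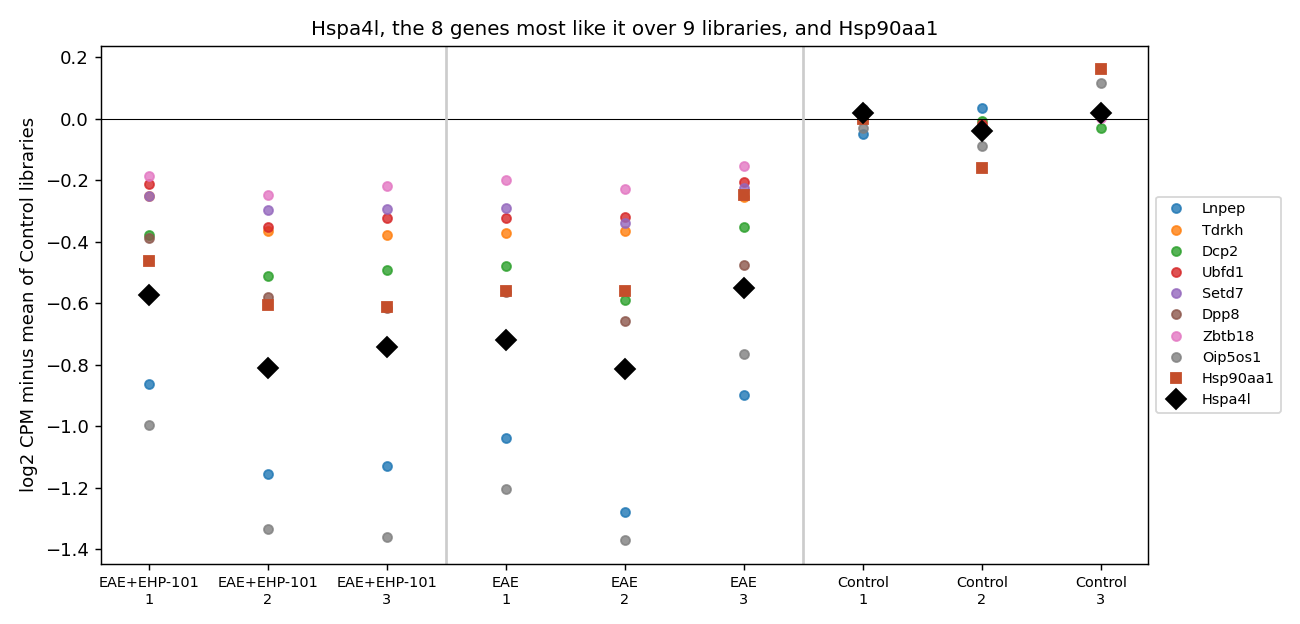
Log2 CPM minus the mean of the Control libraries (vertical axis) in each of the 9 libraries (horizontal axis) for Hspa4l, the 8 genes most like it and Hsp90aa1. All 10 genes lie below the Control mean in the 6 libraries with EAE, and the values of EAE replicate 3 are the least low of the EAE libraries.

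The other chaperones and co-chaperones were read from 11 lists by role. They hold 121 genes besides the 10, of which 114 were tested. EAE against Control gave 25 higher and 12 lower of 114, which became 11 higher and 15 lower with the length trend removed. Of all 16749 tested genes 20.2% were higher and 16.7% lower (3391 and 2800, against 2545 and 1701 with the trend removed), so these shares lie near the background. EAE+EHP-101 against Control gave 7 higher and 11 lower, beside 9.96% and 9.82% of all genes, and 1 higher and 12 lower with the trend removed. EAE+EHP-101 against EAE gave 0 called by edgeR, beside 0.43% of all genes higher and 4.81% lower. DESeq2 gave 4 lower, beside 137 higher and 940 lower over all genes. At an unadjusted edgeR p under 0.05, for which all genes were not counted, stood 20 of the 114, 19 of them lower. Leaving out 1 library gave 8 to 25 higher (8 without EAE replicate 2, 10 without Control replicate 2, 16 without Control replicate 1) and 6 to 18 lower (6 without EAE replicate 1) in the first of these comparisons, and 0 to 9 higher and 1 to 13 lower in the second (0 and 1 without EAE+EHP-101 replicate 2, 1 and 3 without EAE+EHP-101 replicate 3, with 1 higher without Control replicate 2 and 3 higher without Control replicate 1). In the third, 0 to 4 were lower, with 4 lower and 1 higher without Control replicate 3. The median log2 fold change of the 114 was 0.06 for EAE against Control and -0.05 for EAE+EHP-101 against EAE.

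The small heat shock proteins, which hold unfolded proteins without using ATP, had the highest share of called genes among the 11 lists in EAE against Control. Of 7 tested, 6 were higher in EAE than in Control and 0 lower, beside 20.2% and 16.7% of all tested genes, with a median log2 fold change of 0.79, and 4 were higher with the length trend removed. Some of the 7 rest on few reads. Hspb3 had 13 reads in the 3 Control libraries together and 33 in those of EAE, and Hspb2 had 41 and 90. At such depth a gene can pass the filter on low counts through the groups where it is high, so the count of 6 is a description. Hspb1, the small heat shock protein of reactive astrocytes and injured neurons, had 14.2, 18.7 and 22.6 CPM in EAE+EHP-101, 31.1, 41.3 and 32.0 CPM in EAE, and 16.7, 9.24 and 7.73 CPM in Control. It rose by 1.64 in EAE against Control (log2, SE 0.25, edgeR adjusted p = 0.000578). All EAE+EHP-101 libraries of Hspb1 were below all EAE libraries, at a log2 fold change of -0.91 that missed the threshold (SE 0.24, edgeR adjusted p = 0.0533), and it was called without Control replicate 1 (adjusted p = 0.0120), Control replicate 3 (0.0323) or EAE+EHP-101 replicate 3 (0.0449), and in a fit of only these 2 groups (0.0208).

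Hspb8, which works with Bag3 in the clearance of aggregates, had 86.9, 96.1 and 90.0 CPM in EAE+EHP-101, 100.1, 128 and 104 CPM in EAE, and 69.1, 58.1 and 65.6 CPM in Control. The 3 groups did not overlap: it was 0.79 higher in EAE against Control (log2, edgeR adjusted p = 0.000181) and 0.50 higher in EAE+EHP-101 against Control (edgeR adjusted p = 0.00824), and EAE+EHP-101 against EAE gave -0.28 (edgeR adjusted p = 0.138). The second of these calls ended without EAE+EHP-101 replicate 2 (edgeR adjusted p = 0.0509). Hspb6 rose by 0.54 in EAE against Control (edgeR adjusted p = 0.00133) and Hspb2 by 1.07 (edgeR adjusted p = 0.00796). In EAE+EHP-101 against Control 2 of 7 small heat shock proteins were called higher, Hspb8 and Hspb6, beside 9.96% of all tested genes. Among other settings, the Hspb6 call there ended with DESeq2 (DESeq2 adjusted p = 0.051) and with the length trend removed (edgeR adjusted p = 0.271). It also ended without any single library other than EAE replicate 2 and EAE+EHP-101 replicate 1 (0.0505 to 0.177). Cryab, the most abundant of the list and a chaperone of oligodendrocytes and astrocytes, had 291, 338 and 339 CPM in EAE+EHP-101, 329, 404 and 384 CPM in EAE, and 283, 295 and 319 CPM in Control. Its rise in EAE was 0.32 (log2, edgeR adjusted p = 0.0165), and the value was 0.12 with the length trend removed (edgeR adjusted p = 0.283); the call also ended without Control replicate 1 (0.0862) or 2 (0.0765) or EAE replicate 2 (0.111) or 3 (0.0567). The summed level of 6 astrocyte markers was 6802 to 7242 CPM in EAE+EHP-101, 7925 to 9840 CPM in EAE and 5968 to 7538 CPM in Control, and 3 of the 6 (Gfap, Aqp4 and Aldh1l1) were higher in EAE than in Control. They did not move alike, since Slc1a2 and Gja1 had log2 fold changes of -0.13 and -0.22 for EAE against Control (edgeR adjusted p = 0.103 and 0.0563) and were the 2 called lower in EAE+EHP-101 against Control. Their part in the result was not tested.

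Chaperones of the endoplasmic reticulum, which fold secreted and membrane proteins, were higher in EAE for 8 of 17 tested and lower for 0, beside 20.2% and 16.7% of all tested genes. With the length trend removed 3 were higher and 0 lower, beside 2545 and 1701 of all 16749. The 8 became 2 without EAE replicate 2, 3 without Control replicate 2, 4 without EAE replicate 1 or EAE+EHP-101 replicate 2, and 5 without Control replicate 1. P4hb, a protein disulfide isomerase, had 111, 108 and 111 CPM in EAE+EHP-101, 126, 139 and 125 CPM in EAE, and 102, 99.9 and 113 CPM in Control, a rise of 0.31 in EAE (log2, edgeR adjusted p = 0.0033). Sdf2l1, an endoplasmic reticulum protein that binds J proteins, rose by 0.63 in EAE (edgeR adjusted p = 0.00356), and Manf, a secreted stress-induced factor, by 0.37 (edgeR adjusted p = 0.0112; 0.0530 without Control replicate 2 and 0.0575 without EAE replicate 2). In EAE+EHP-101 against EAE the median of the 17 was -0.20, and 0 were called by edgeR. P4hb had -0.24 (edgeR adjusted p = 0.0536), Pdia3 -0.27 (edgeR adjusted p = 0.0618) and Sdf2l1 -0.43 (edgeR adjusted p = 0.0943) there. The 2 groups did not overlap for any of the 3. These 3 were named for the smallest p of the list in this comparison, so their lack of overlap is in part set by that choice. DESeq2 called these 3 and Hsp90b1 lower, where it called 940 lower and 137 higher over all genes. In edgeR, P4hb was called with library totals (adjusted p = 0.0460), with only these 2 groups (0.0452) and without Control replicate 3 (0.0293), and Sdf2l1 with only these 2 groups (0.0325) and without Control replicate 1 (0.0417). The markers of monocytes and macrophages moved with this list, with 5 of 6 higher in EAE than in Control and 4 of 6 lower in EAE+EHP-101 than in EAE. So did 6 microglial markers, with 5 of 6 higher in EAE than in Control, 5 of 6 lower in EAE+EHP-101 than in EAE, and a summed level of 379 to 556 CPM in EAE+EHP-101, 777 to 1053 CPM in EAE and 303 to 388 CPM in Control. Of 6 T cell markers, 6 were higher in EAE than in Control and 2 lower in EAE+EHP-101 than in EAE. Of 4 tested neutrophil markers 0 were called in EAE against Control and 0 in EAE+EHP-101 against EAE. In EAE+EHP-101 against Control 4 of the 4 were higher, beside 9.96% of all tested genes. The summed level of 5 neutrophil markers was 20.8 to 61.3 CPM in EAE+EHP-101, 8.23 to 22.0 CPM in EAE and 4.33 to 13.4 CPM in Control. Some of these markers were near the floor in Control, where Ccr2, Ms4a7, Plac8 and Cd3e had 23, 11, 16 and 6 reads in the 3 libraries together. Most of the summed level of the monocyte and macrophage markers was Lyz2 and Cd74, with means of 436 and 342 CPM in EAE. The part of these markers in the result was not tested.

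J proteins of class C, which bring HSP70 to particular places in the cell, were lower in EAE for 6 of 25 tested and higher for 2, beside 16.7% and 20.2% of all tested genes (0 higher without Control replicate 1 or 2 or EAE replicate 2). With the length trend removed the counts were 6 lower and 1 higher, but not of the same genes, since Dnajc18 (edgeR adjusted p = 0.471) and Dnajc2 (0.227) were no longer called and Dnajc1 was, at 0.36 (0.0025). Dnajc6, the auxilin that recruits Hspa8 to clathrin coats at synapses, had 265, 231 and 228 CPM in EAE+EHP-101, 234, 202 and 233 CPM in EAE, and 292, 305 and 300.0 CPM in Control. It fell by 0.42 in EAE against Control (log2, edgeR adjusted p = 0.00156) and by 0.31 in EAE+EHP-101 against Control (edgeR adjusted p = 0.0191), and the second call ended with the length trend removed (edgeR adjusted p = 0.0965). Dnajc5, the cysteine string protein of synaptic vesicles, fell by 0.36 in EAE against Control (edgeR adjusted p = 0.00374) and by 0.33 in EAE+EHP-101 against Control (edgeR adjusted p = 0.0157). Both calls against Control in EAE+EHP-101 ended without EAE+EHP-101 replicate 2 (0.0895 for Dnajc6, 0.0785 for Dnajc5) or replicate 3 (0.0787 and 0.0681). Of the 10 neuronal markers, whose summed levels are given above, 6 were lower in EAE than in Control, beside 16.7% of all tested genes. In EAE+EHP-101 against Control 4 of the 10 were lower, beside 9.82% of all tested genes. These neuronal markers did not all move alike. Mean levels in EAE and Control were 534 and 487 CPM for Tubb3 and 527 and 504 CPM for Stmn2. Snap25 made up most of the sum, with a mean of 3230 CPM in EAE and 3721 CPM in Control. Of 6 motor neuron markers 0 were called in either comparison with Control. The summed level of 7 endothelial markers was 183 to 220 CPM in EAE+EHP-101, at most 162 CPM in EAE and 202 to 315 CPM in Control. Of these, 7 of 7 were lower in EAE than in Control, beside 16.7% of all tested genes. In EAE+EHP-101 against Control 0 of 7 were called, beside 9.82% of all tested genes lower, with a median log2 fold change of -0.45. No marker of these lists was at 0 in any group. What part they had in the values of Hspa4l, Hspa4, Hsp90aa1 and these J proteins was not tested.

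J proteins of classes A and B gave 1 higher and 1 lower of 14 tested in EAE against Control, beside 20.2% and 16.7% of all tested genes. The higher gene was Dnajb13, at 0.92 (log2, edgeR adjusted p = 0.0350), and its call ended with the length trend removed (0.112) and without Control replicate 1 (0.122) or 3 (0.0997) or EAE replicate 1 (0.0564), 2 (0.147) or 3 (0.0553). The lower gene was Dnajb14, a J protein of the endoplasmic reticulum membrane, which had 17.1, 13.3 and 12.9 CPM in EAE+EHP-101, 13.7, 12.3 and 17.4 CPM in EAE, and 23.9, 23.7 and 26.9 CPM in Control. With a log2 fold change of -0.78 in both comparisons with Control (edgeR adjusted p = 0.00127 for EAE and 0.00623 for EAE+EHP-101), it was low in EAE and low with treatment, as Hspa4l was. The HSP70 and HSP110 family outside the 10 gave 1 higher (Hspa2, 0.31, edgeR adjusted p = 0.034) and 1 lower (Hspa12a, -0.28, edgeR adjusted p = 0.049) of 9, and neither call held with the length trend removed (0.0579 and 0.406). Hspa2 was also lost without any single library other than Control replicate 3 and EAE+EHP-101 replicates 1 and 2 (0.0504 to 0.153), and Hspa12a without any other than Control replicate 3, EAE replicate 3 and EAE+EHP-101 replicate 1 (0.0562 to 0.132). The HSP90 genes outside the 10 gave 0 of 2 called in EAE against Control. Hsp90b1, the HSP90 of the endoplasmic reticulum, had a log2 fold change of -0.27 for EAE+EHP-101 against Control (edgeR adjusted p = 0.0138; 0.0653 without EAE+EHP-101 replicate 2).

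Of the co-chaperones of HSP70 and HSP90, 4 were higher and 3 lower of 24 in EAE against Control, near the 20.2% and 16.7% of all tested genes (2 and 6 with the length trend removed). Chordc1, an HSP90 partner that heat shock induces, had 83.2, 80.0 and 85.7 CPM in EAE+EHP-101, 83.3, 84.9 and 92.7 CPM in EAE, and 118, 94.3 and 111 CPM in Control. It fell by 0.31 in EAE against Control (log2, edgeR adjusted p = 0.0117) and by 0.38 in EAE+EHP-101 against Control (edgeR adjusted p = 0.0117). St13, which steadies HSP70 in its ADP state, fell by 0.23 (edgeR adjusted p = 0.0286) and 0.33 (edgeR adjusted p = 0.0128) in these comparisons. Without EAE+EHP-101 replicate 2 the second call ended for both (0.0614 for Chordc1, 0.0679 for St13), and that of St13 also without replicate 3 (0.0577), while its first call ended without EAE replicate 1 (0.0975) or 2 (0.0664). Hspbp1 and Bag1, exchange factors of HSP70 like the HSP110 proteins, rose by 0.26 (edgeR adjusted p = 0.00443) and 0.28 (edgeR adjusted p = 0.00954) in EAE, and with the length trend removed neither call was kept (0.169 and 0.193). Cdc37, which brings kinases to HSP90, rose by 0.21 (edgeR adjusted p = 0.0115), a call that ended without Control replicate 1 (0.0703) or 2 (0.0767) or EAE replicate 2 (0.0610). The count of higher co-chaperones was 1 without Control replicate 2 or EAE replicate 2, and that of lower ones 1 without EAE replicate 1 and 7 without Control replicate 2.

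Of 14 tested genes known as heat shock targets, the 10 aside, 4 were higher in EAE than in Control and 2 lower, beside 20.2% and 16.7% of all tested genes, and 2 were higher and 2 lower with the length trend removed. The higher count was 2 without Control replicate 2 or EAE replicate 2, and the lower count 1 without Control replicate 1 or EAE replicate 1 or 2. Hspb8, Hspb1, Hspe1 and Cryab were the higher ones, and Chordc1 was among the lower ones. Hspe1, the small subunit of the mitochondrial chaperonin, rose by 0.44 (log2, edgeR adjusted p = 0.00946), which became 0.16 with the length trend removed (edgeR adjusted p = 0.212) and was not called without Control replicate 2 (0.0613) or EAE replicate 2 (0.0631). The heat shock factors and their regulators gave 1 higher of 5, Hsbp1, at 0.29 (edgeR adjusted p = 0.00821; 0.259 with the length trend removed, and 0.0516 to 0.0573 without Control replicate 1, Control replicate 2 or EAE replicate 2). The cytosolic chaperonin gave 0 higher and 1 lower of 8 (Cct6a, -0.23, edgeR adjusted p = 0.0487, lost without Control replicate 3, EAE replicate 1 or 2, or EAE+EHP-101 replicate 2 or 3 at 0.0531 to 0.120), and the mitochondrial chaperones 2 higher and 0 lower of 11 (Hspe1 and Clpp). With the length trend removed Clpp was at 0.06 (edgeR adjusted p = 0.478), so that neither of these 2 calls was kept, and Clpp was also lost without EAE replicate 2 (0.0710). The motif stood in the windows of 12 of 19 heat shock targets with a RefSeq window, the 10 included, of 4 of 7 small heat shock proteins and of 0 of 14 endoplasmic reticulum chaperones, beside 17% of all 27025 genes with a window. It was in 3 of 7 cytosolic chaperonin genes, 3 of 9 mitochondrial chaperones and 5 of 21 co-chaperones. For J proteins it was in 4 of 17 of classes A and B and 2 of 19 of class C. The HSP70 and HSP110 family had 3 of 11, the HSP90 family 0 of 2 and the heat shock factors 1 of 4. The lists share genes, and the 12 include Hspa1a and Hspa1b, whose windows are nearly identical.

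**Figure D4:**
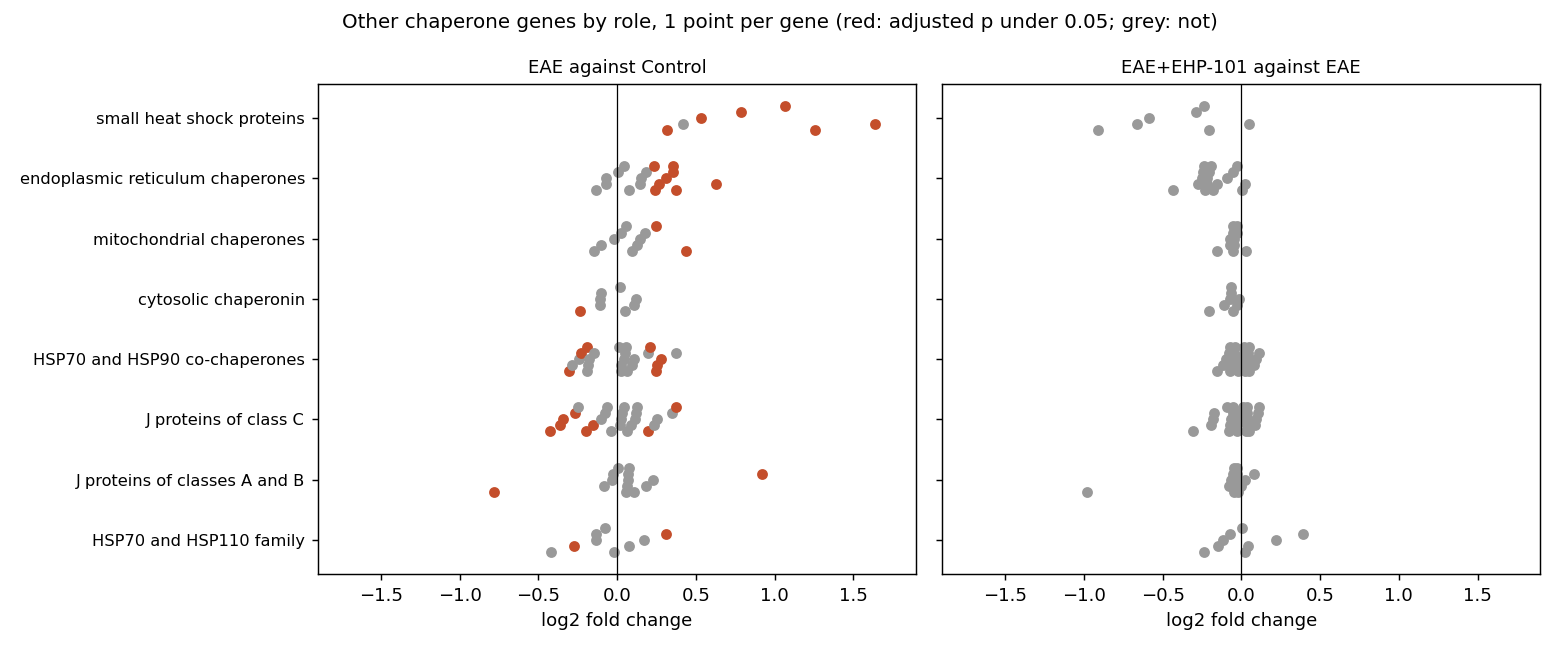
Log2 fold changes (horizontal axes) of the other tested chaperone genes by role (rows), 1 point per gene, with called genes in red, for EAE against Control and EAE+EHP-101 against EAE. Of the small heat shock proteins 6 of 7 are called higher in EAE, and no point is called in EAE+EHP-101 against EAE.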

How the data were processed

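Spinal cord RNA of 9 mice was sequenced as single-end reads from stranded poly-A libraries, per the labels' protocols. The authors deposited whole-number read counts per Entrez gene, not normalised, with exon coordinates in mm10, per the file headers. Per the submitters' processing notes, the tools were featureCounts 1.6.1, HISAT2 2.1.0, DESeq2 1.20.0 and Trimmomatic 0.36 with build mm10; their roles are not stated. Neither the labels nor the headers give the strand setting, the handling of reads with several matches, or the animals' age, sex, sampling time and treatment length.

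Symbols came from a RefSeq table (GRCm38.p6) for 25275 of 27179 identifiers, and the 1904 others held 0.311% to 0.619% of the counts of a library. In R 4.3.3 and edgeR 4.0.16, filterByExpr kept 16749 genes. TMM factors scaled the libraries, 1 mean per group was fitted to all 9, and the 3 contrasts were tested by quasi-likelihood with Benjamini-Hochberg adjustment (threshold 0.05). SE is the log2 fold change over the root of its F statistic. The p-values measure the spread between mice of 1 experiment. The length trend is a lowess curve of each library's deviation against log2 exon length, used as an offset. Shared stretches are 50-base words of the longest GENCODE M21 transcript. The procedure was tested on simulated data.

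The members, the lists and the tests were chosen with earlier results of these data known. Named genes are the 10, up to 4 per list with the smallest p for EAE against Control, up to 3 per list with the smallest p for EAE+EHP-101 against EAE, and the 8 most like Hspa4l among genes averaging log2 CPM 1 or more, predicted genes aside. Markers of neurons, motor neurons, astrocytes, endothelial cells, microglia, T cells, neutrophils, and monocytes and macrophages are given beside the results. Those of a list did not all move alike. Markers of skeletal muscle and oligodendrocytes are given where a library stood apart.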

Additional observations from a re-analysis of the deposited data

How the results depend on the processing

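The log2 fold changes of Hspa4l moved by less than the spread between replicates under all 16 alternatives run for each comparison. As Hspa4l was chosen on these comparisons, this is a description and lends its difference no support. The log2 fold changes of Hsp90aa1 against Control stayed called under each alternative. The count of lower genes among the other 9, 2 in both comparisons with Control, became 1 for EAE+EHP-101 against Control with library totals, with only the 2 groups compared, with the replicate number as a block and with the length trend removed, and 1 for EAE against Control under the last 3 of these. Hspa4 was the gene lost each time, with adjusted p of 0.0640 and 0.0650 under the block. Leaving out 1 library gave 1 to 4 lower for EAE against Control and 1 to 3 for EAE+EHP-101 against Control. Replicate numbers pair nothing in the labels, and same-numbered libraries deviated together with a correlation of -0.187 to 0.123. Over all genes, EAE+EHP-101 against EAE gave 72 higher, and 137 with DESeq2, 169 with only the 2 groups and 44 with the block. EAE+EHP-101 against Control gave 1669 higher and 1645 lower, 1095 higher with the block, 761 higher and 792 lower with the length trend removed, and 2176 higher and 1319 lower with library totals. EAE against Control gave 2800 lower, and 1701 with the length trend removed. Leaving out 1 library gave 22 to 249 higher and 348 to 921 lower for EAE+EHP-101 against EAE, 237 to 1712 higher and 392 to 2065 lower for EAE+EHP-101 against Control, and 2160 to 3399 higher and 2211 to 3696 lower for EAE against Control. The cause was not tested. No called value changed direction under the alternatives run. Hspa1a and Hspa1b, with 36 to 152 reads per library, are limited by depth and by reads shared between them.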
